A study of Mus musculus with 4 samples.

Results

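The genes described here burn fatty acids in mitochondria, peroxisomes and the endoplasmic reticulum, make ketone bodies, or are regulators and known targets of the nuclear receptor PPAR alpha. They are 38 genes, chosen by name, and 38 of 38 had at least 1 probe among the 27670 genes of a mouse whole-genome two-colour oligonucleotide array. The members were found through the gene name in the scanner files or the current symbol of the probe's RefSeq accession.

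The animals were male C57BL/6J mice, 7 weeks of age at the start. The control group was fed a purified diet poor in nucleoprotein, which held 0.03% nucleic acids. The nucleoprotein group was fed a matching diet to which a nucleoprotein product had been added at 1.2%, and its nucleic acid content was 0.5%. Both groups were fed for 4 weeks, then both were given a single dose of lipopolysaccharide (LPS), an inflammatory component of bacterial outer membranes, at 10 mg/kg, and liver and spleen were sampled 6 h later. RNA was pooled by diet within each organ, and how many mice stood behind a pool is not given in the sources used here. The housing notes mention a standard chow, whereas the study design describes the purified diets. Mice without LPS were not analysed here, so the values compare diets or organs among injected mice.

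Each organ had 2 arrays, both on the same slide. The replicate 1 array carried the nucleoprotein pool in the red dye (Cy5) and the control pool in the green dye (Cy3), and the replicate 2 array carried them the other way round. The labels do not say whether the numbered pools are separate pools, and the 2 arrays of an organ were counted as 1 replicate. For this reason no test was run, and every ± below is the SD of 2 arrays, which holds labelling, dye and array error. Diet ratios are log2 of nucleoprotein over control. Measurable genes are those whose brightest probe, in the channel of 1 diet or of both, stood well above background on each array of the organ. A gene is called higher or lower where both arrays put its ratio past 1.5-fold, or 0.58 log2 units, in the same direction. Well above background were 55.17% to 66.77% of gene spots in green and 66.48% to 72.76% in red, and 0 gene spots were saturated. Hepatocyte markers were 8-fold or more brighter on the liver arrays for 14 of 14 measurable genes, and B cell markers were at least 2-fold brighter on the spleen arrays for 6 of 6. In bulk RNA of this kind, fewer cells of a type and less RNA per cell cannot be told apart.

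As background, long-chain fatty acids enter hepatocytes, are bound by the liver fatty acid binding protein, are activated to coenzyme A (CoA) esters, and reach the mitochondrial matrix through the carnitine shuttle. There each turn of beta-oxidation shortens the chain and yields acetyl-CoA, which the fasted liver turns into ketone bodies. Peroxisomes shorten very long and branched chains, and microsomal cytochromes of the Cyp4a family oxidize the far end of the chain. PPAR alpha, together with the retinoid X receptor, binds a pair of AGGTCA-like sites spaced by a single base, and its target genes include many of the enzymes listed here.

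Sequences are shown for the member that the diet comparison turns on, Fabp1, and for probes whose reading needs care. The promoter of Fabp1 is shown because it was the only member promoter of those searched that held a pair of sites matching AGGNCANAGGNCA on either strand. It is taken from RefSeq (GRCm38.p6), chr6:71199629-71199928, plus strand, 250 bases before to 50 after the gene's start, and capitals mark the match, which lies on the minus strand and begins 67 bases before the start.

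Fabp1 promoter: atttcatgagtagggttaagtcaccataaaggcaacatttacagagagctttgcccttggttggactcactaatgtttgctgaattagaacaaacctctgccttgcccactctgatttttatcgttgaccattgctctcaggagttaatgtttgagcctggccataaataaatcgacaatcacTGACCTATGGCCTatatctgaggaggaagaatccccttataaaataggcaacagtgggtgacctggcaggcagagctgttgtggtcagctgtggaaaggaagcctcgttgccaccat

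Read on its own strand the match is AGGCCATAGGTCA. The RefSeq table held 300-base windows for 31 of the 38 members (35 windows), and Cpt1b, Acaa2, Decr1, Cyp4a10, Cyp4a14, Angptl4 and Vnn1 were not in it. Among all 32851 windows 125 (0.381%) held AGGNCANAGGNCA on either strand, against 1 of the 35 member windows. The strict form AGGTCANAGGTCA, which is a subset of it, was in 13 windows in all (0.0396%) and in 0 of the member windows. The single site AGGTCA, which the longer forms can contain, was in 16.3% of all windows and in 8 of the 35 member windows, those of Acadm, Acadvl, Acot3, Acot4, Cpt1a, Fabp1 and Slc27a2. A match of letters is a description of the window and not a binding site.

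The 60-base probes below are given 5′ to 3′ as in the scanner files, with mm7 positions from those files. The first is the only probe of Fabp1 (chr6:71222913-71222972, plus strand). The next is the brightest of the 3 probes of Slc27a2 (chr2:126328667-126328726, plus strand), the only one of them with signal above background in spleen. The last is a dimmer probe of the peroxisomal thiolase Acaa1a, which covers 1221 bases of the genome (chr9:119026729-119027949) with 60 bases of probe, so it joins exons.

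Fabp1 probe: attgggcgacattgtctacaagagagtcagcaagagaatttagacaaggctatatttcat
Slc27a2 brightest probe: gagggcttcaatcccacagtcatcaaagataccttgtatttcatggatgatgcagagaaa
Acaa1a dimmer probe: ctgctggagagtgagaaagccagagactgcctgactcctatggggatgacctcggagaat

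In liver, no member passed the diet bound in either direction. Of 37 measurable members 0 were called higher and 0 lower, beside 2 (0.0122%) and 52 (0.317%) of 16413 measurable genes. The members' median ratio was 0.03, with 0.05 on replicate 1 and 0.01 on replicate 2, and that of all genes was 0.01. The mean ratio was above 0 for 22 members and below 0 for 15, from -0.24 for Acaa1a to 0.58 for Acot1. Only 12 members kept 1 sign on both arrays, 8 above 0 and 4 below, and for 25 the sign differed between the dye orientations. Among all 16413 measurable genes the sign differed for 10825, and 3361 were above 0 and 2227 below 0 on both arrays. Their means were above 0 for 9584 and below 0 for 6829, so the members' signs were split much like those of all genes. Past the bound in opposite directions on the 2 arrays were 0 members, beside 74 genes (0.451%). The 38th member, the branched-chain acyl-CoA oxidase Acox2, had its spot called an outlier on the liver replicate 1 array, and its ratio was -0.48 on replicate 2 alone.

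**Figure D1:**
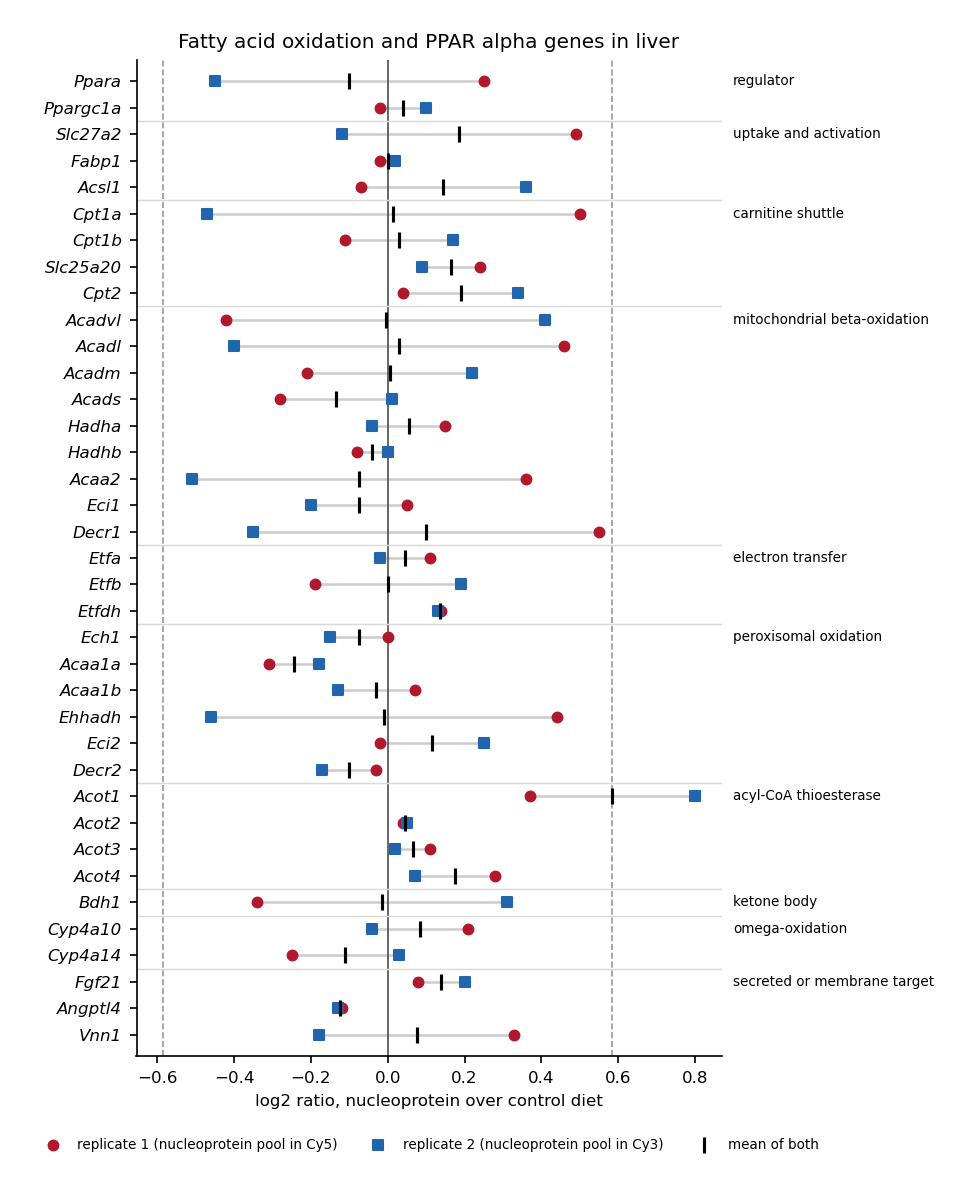
Diet log2 ratios (nucleoprotein over control) of the 37 members measurable in liver, grouped by role; circles are replicate 1, squares replicate 2, bars the mean of both, and dashed lines the 1.5-fold bound at 0.58. Only the replicate 2 value of Acot1, 0.80, lies outside the bound, and for many genes the circle and the square lie on opposite sides of 0.

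Ppara, the receptor itself, had a liver ratio of 0.25 on replicate 1 and -0.45 on replicate 2 (-0.10 ± 0.49). Its probe was printed in 10 spots, and within an array the spots had an SD of 0.09 on replicate 1 and 0.07 on the 9 usable spots of replicate 2. The spots of an array thus agreed far more closely than the 2 dye orientations did. Ppargc1a, a coactivator of PPAR alpha and of mitochondrial biogenesis, had -0.02 and 0.10 (0.04 ± 0.08).

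Of the genes for uptake and activation, Fabp1, the cytosolic fatty acid carrier of hepatocytes, was the most even in liver, with -0.02 and 0.02 (0.00 ± 0.03). Slc27a2, which imports and activates very long chain fatty acids, had 0.49 and -0.12 (0.19 ± 0.43). Acsl1, the main long-chain acyl-CoA synthetase of liver, had -0.07 and 0.36 by its brightest probe (0.14 ± 0.31). Its other 2 probes had 0.59 and 0.54 on replicate 1 and -0.41 and -0.24 on replicate 2, the opposite order, with means of 0.09 and 0.15.

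The carnitine shuttle had 4 members, with a median of 0.10 and 4 of 4 means above 0, beside 9584 of 16413 genes. Cpt1a, the rate-limiting carnitine palmitoyltransferase of liver, had 0.50 and -0.47 (0.02 ± 0.69), the widest disagreement between the arrays among the members. Its 10 spots on replicate 1 ran from 0.41 to 0.57 and its 9 spots on replicate 2 from -0.61 to -0.39, and a second probe gave 0.33 and -0.44. The muscle form Cpt1b had -0.11 and 0.17. Over all its probes Cpt1a had a mean of -0.02, and Cpt1b had -0.01 by the scanner files' own log ratio. The shared sign of the 4 means thus depended on the probe and the ratio used. Cpt2, which reforms the CoA ester inside the matrix, had 0.04 and 0.34 (0.19 ± 0.21). Slc25a20, the carnitine-acylcarnitine carrier of the inner membrane, had 0.24 and 0.09 (0.16 ± 0.11). Both had the same sign on the 2 arrays, and neither reached 0.58 on either.

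The 9 genes of mitochondrial beta-oxidation had a liver median of 0.00, and 0 of the 9 were above 0 or below 0 on both arrays. Acadvl, Acadl, Acadm and Acads are the acyl-CoA dehydrogenases for very long, long, medium and short chains. Acadvl had -0.42 and 0.41 and Acadl 0.46 and -0.40, so the arrays were mirror images for both genes. Acadm had -0.21 and 0.22, and Acads had -0.28 and 0.01 (-0.13 ± 0.20). The subunits of the trifunctional protein were close to 0, with 0.15 and -0.04 for Hadha and -0.08 and 0.00 for Hadhb. Acaa2, the last thiolase of the cycle, had 0.36 and -0.51 (-0.07 ± 0.62), and its spots within an array had SDs of 0.04 and 0.03. The enzymes that handle double bonds gave 0.05 and -0.20 for Eci1 and 0.55 and -0.35 for Decr1 (0.10 ± 0.63). The electron transfer genes, which pass electrons from the dehydrogenases to the respiratory chain, were also below the bound. Etfdh had 0.14 and 0.13 by its brightest probe, but its second probe, with a liver level of 10.04 and above background in 4 of 4 liver channels, gave 0.56 and -0.37. Etfa had 0.11 and -0.02 and Etfb -0.19 and 0.19.

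The 6 measurable peroxisomal genes had a liver median of -0.05, with 1 of 6 means above 0. Acaa1a, a peroxisomal thiolase, had -0.31 and -0.18 (-0.24 ± 0.09), the lowest mean of the members. The dimmer probe printed above gave -0.42 and 0.21, so the sign on replicate 2 was not shared, and under median centring of the arrays the mean of the brightest probe was 0.18. Acaa1b had 0.07 and -0.13. Ehhadh, the bifunctional enzyme of the peroxisome, had 0.44 and -0.46 (-0.01 ± 0.64). Ech1 and Eci2, isomerases found in peroxisomes and mitochondria, had 0.00 and -0.15, and -0.02 and 0.25. Decr2, the peroxisomal dienoyl-CoA reductase, had -0.03 and -0.17, and like Ech1 it turned above 0 under median centring, at 0.23 and 0.30.

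The acyl-CoA thioesterases, which release free fatty acids from CoA esters, were the role in which 4 of 4 genes lay above 0 on both liver arrays. Among all genes 3361 of 16413 did. Acot1, the cytosolic form, had 0.37 and 0.80 (0.58 ± 0.30), and its level went from 11.25 in the control pool to 11.83 in the nucleoprotein pool. The replicate 1 value missed the bound, so Acot1 was not called, and on replicate 2 alone it would have been the 1 member called higher. The peroxisomal form Acot4 had 0.28 and 0.07 (0.17 ± 0.15). The mitochondrial Acot2 (0.04 and 0.05) and the peroxisomal Acot3 (0.11 and 0.02) differed from 0 by little. These 4 genes form a cluster of closely related sequence on chromosome 12, so a probe of 1 may take up RNA of another.

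Bdh1, the mitochondrial enzyme that makes beta-hydroxybutyrate, was the only ketone body gene among the members, and its liver ratio was -0.34 and 0.31 (-0.01 ± 0.46). Its second probe gave 0.11 and 0.03. The omega-hydroxylases Cyp4a10 (0.21 and -0.04) and Cyp4a14 (-0.25 and 0.03), which are strongly induced by PPAR alpha agonists in mouse liver, stayed inside the bound on both arrays, although Cyp4a10 also has close paralogs. So did the secreted PPAR alpha targets Fgf21 (0.08 and 0.20), a fasting hormone, and Angptl4 (-0.12 and -0.13), an inhibitor of lipoprotein lipase. The pantetheinase Vnn1 had 0.33 and -0.18. Angptl4, with 1 sign and nearly 1 value on both arrays, turned to 0.28 under median centring.

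The 2 dye orientations were set against each other, since their signs differed for most members, as for most genes. The replicate 1 ratio minus the mean of both arrays is above 0 where the ratio was higher with the nucleoprotein pool in Cy5 than in Cy3. Array and dye orientation cannot be told apart. Over the 37 members in liver it ran from -0.42 for Acadvl to 0.49 for Cpt1a, and in spleen from -0.26 for Acads to 0.28 for Etfdh. For Cpt1a it was 0.24 in spleen, for Acadl 0.43 in liver and 0.19 in spleen, and for Bdh1 -0.32 and -0.19. It had the same sign in both organs for 26 of the 34 members measurable in both (76.5%), beside 66.1% of 15315 genes, with a Pearson's r of 0.62 (Spearman's rho 0.64) over the members and 0.49 (0.47) over all genes. The points share their probes and the slide, so these are descriptions. The liver ratios of the hepatocyte markers had signs that differed between the arrays for 14 of 14, with medians of 0.37 on replicate 1 and -0.41 on replicate 2. The members went in both directions, with medians of 0.05 and 0.01, and replicate 1 gave the higher ratio for 20 of 37.

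**Figure D2:**
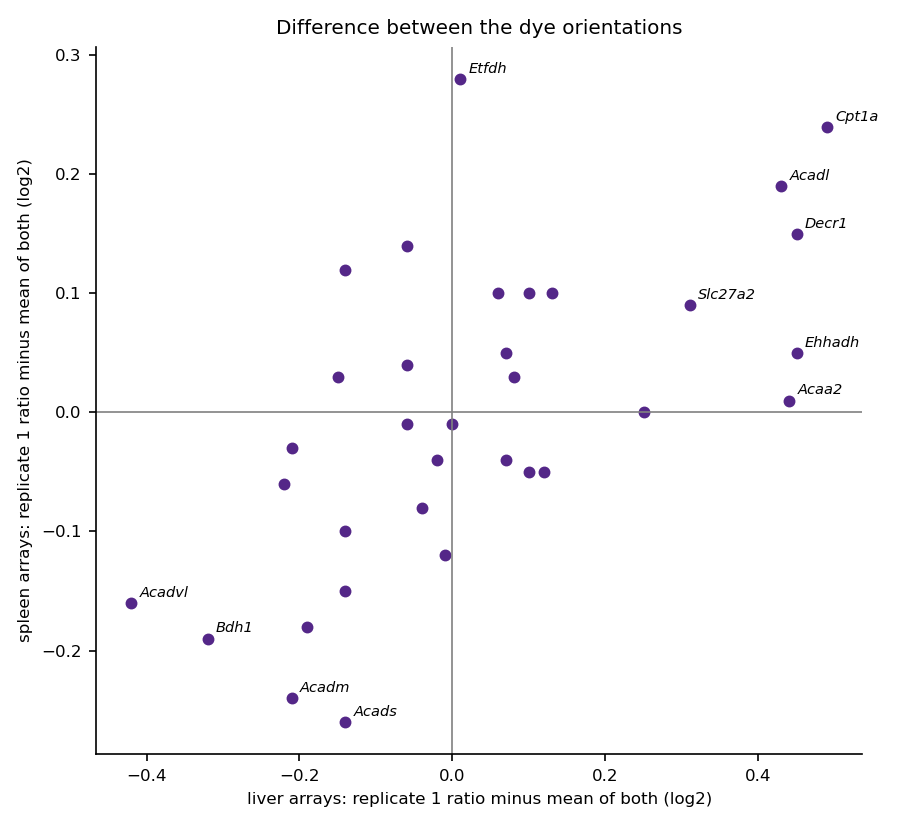
The replicate 1 log2 ratio minus the mean of both arrays for the 34 members measurable in both organs, with liver arrays on the horizontal axis and spleen arrays on the vertical axis; each point is a gene, and genes far from 0 are named. Points lie mostly in the lower left and upper right, with Cpt1a at 0.49 and 0.24 and Acadvl at -0.42 and -0.16.

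The members are bright in liver, and the liver median depended on how each array was normalized. The values above follow a loess curve through each array. With median centring instead, the members had 1.92 on replicate 1 and -1.13 on replicate 2, a mean ratio with a median of 0.37, beside 0.17 for all genes. The mean was then above 0 for 37 of 37 members, but only 1 of them was above 0 on both arrays. Of the 37 members 19 had a level of at least 13, and for the 958 genes as bright as that the medians under median centring were 2.04 and -1.28, with a mean of 0.38, beside 2.06, -1.28 and 0.41 for the 19 members. The bright members and all genes of that brightness thus had like medians under both methods, with 0.00 and -0.02 under loess.

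In spleen, Fabp1 was the 1 member that passed the bound, and it was higher with the nucleoprotein diet. Its ratio was 1.12 on replicate 1 and 1.21 on replicate 2 (1.17 ± 0.06), a 2.24-fold difference, from a level of 7.39 in the control pool to 8.55 in the nucleoprotein pool. Its level in liver was 14.38 with either diet. Of 34 measurable members 1 was called higher and 0 lower, beside 38 (0.209%) and 41 (0.226%) of 18139 genes. The median ratio was -0.03, with -0.04 and -0.03 on the 2 arrays and 0.00 for all genes. Past the bound in opposite directions were 0 members, beside 4 genes (0.0221%). The mean was above 0 for 12 members and below 0 for 22, beside 9032 and 9107 of all measurable genes. Outside Fabp1 the members' means ran from -0.23 for Ech1 to 0.25 for Slc27a2.

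**Figure D3:**
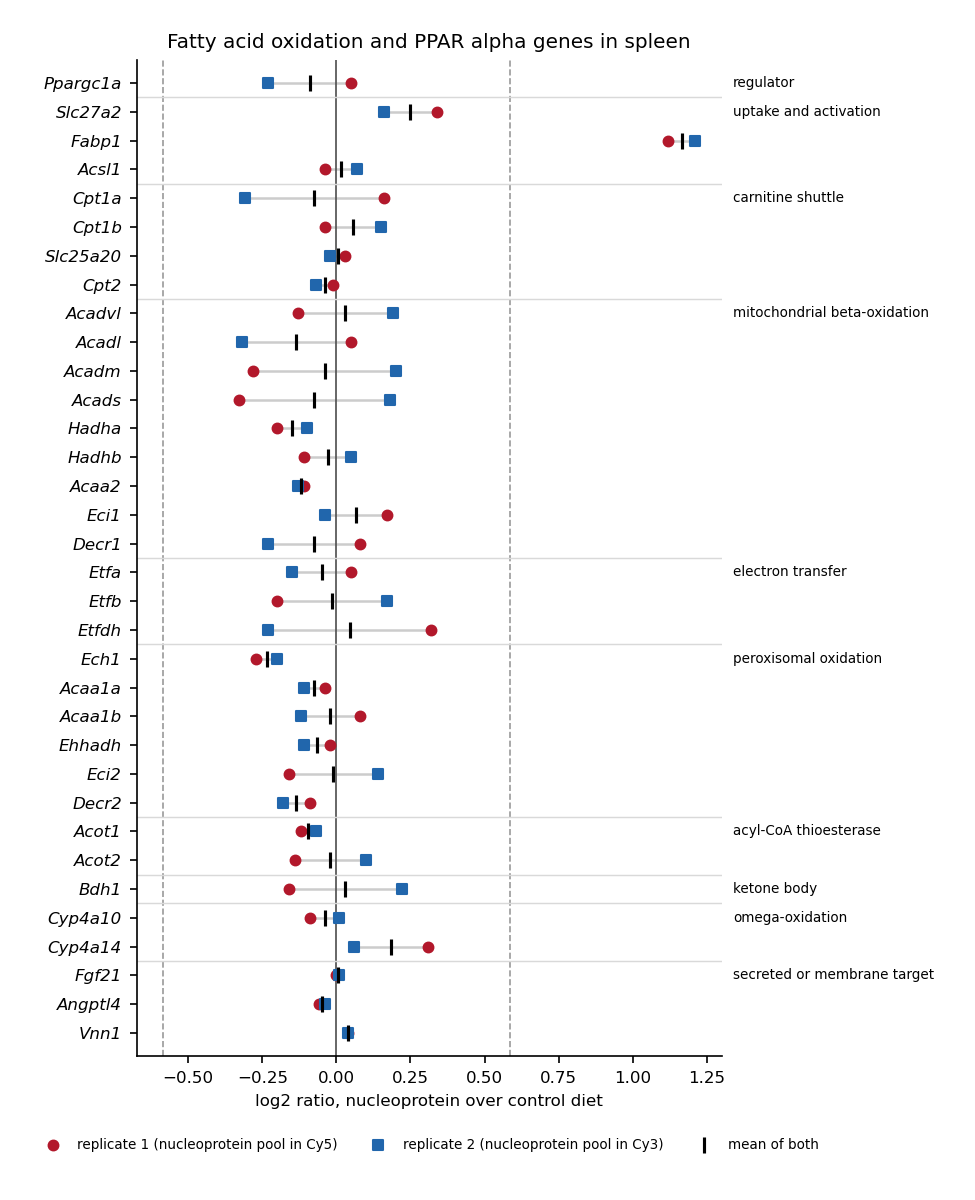
Diet log2 ratios (nucleoprotein over control) of the 34 members measurable in spleen, by role; circles are replicate 1, squares replicate 2, bars the mean of both, and dashed lines the 1.5-fold bound at 0.58. Fabp1, at 1.12 and 1.21, is the only gene beyond a dashed line.

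Fabp1 is also a marker of hepatocytes, and other hepatocyte genes were higher in the same nucleoprotein spleen pool. Of 12 measurable hepatocyte markers 12 had a mean above 0 and 6 were called higher, with a median of 0.84. A dim gene could be measurable through the nucleoprotein channel alone, where it was brighter, so the count of 12 of 12 is not independent of the filter. With both diets required above background, 32 rather than 38 of all spleen genes were called higher. The markers not measurable, Ttr and Hnf4a, had means of 0.05 and 0.12. The 6 called were Fgg (2.21 ± 0.40) and Fgb (1.88 ± 0.03), chains of fibrinogen, Alb (1.94 ± 0.24), which encodes albumin, Ahsg (1.55 ± 0.13), Hpx (1.31 ± 0.17) and Ambp (1.16 ± 0.03). In spleen the 14 markers on the array had levels from 6.06 for Hnf4a, which like Ttr was not measurable there, to 8.99 for Fgb. Pancreatic acinar markers were lower in the nucleoprotein pools, with a median of -1.21 in spleen (8 of 9 called) and -4.04 in liver (9 of 9 called). The part of either cell type in the members' ratios was not tested.

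At an offset of 50 in the background correction, and also at 10, Fabp1 was the only call among the members that were bright in liver. At least 8-fold brighter on liver than on spleen arrays were 18 members, of which 17 were measurable in spleen, with a median diet ratio of -0.04. For the 17 less liver-rich members the median was -0.03, with 0 calls. Among the 636 genes of the whole array that were this rich in liver and measurable in spleen, 33 were called higher and the median was 0.03. The liver-rich members above 0 on both spleen arrays were Fabp1, Slc27a2 (0.34 and 0.16), Cyp4a14 (0.31 and 0.06) and Vnn1 (0.04 and 0.04). More of them, 6, were below 0 on both spleen arrays (Ech1, Decr2, Ehhadh, Acaa2, Acot1 and Cpt2), and 10 of the 17 means were below 0. The mean ratio of Cyp4a14 was 0.19 there, 0.34 at an offset of 10 and 0.66 by the log ratio of the deposited scanner files, and it was called under none of these 3.

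**Figure D4:**
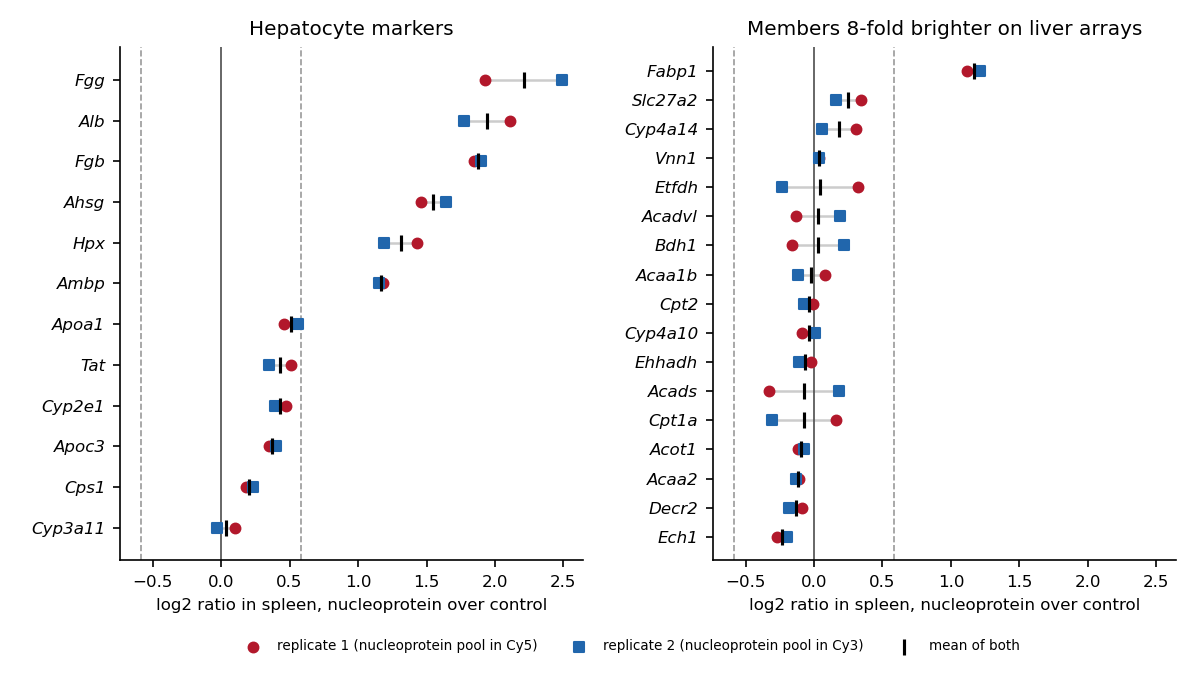
Spleen diet log2 ratios of the 12 measurable hepatocyte markers (left) and of the 17 measurable members that were at least 8-fold brighter on liver arrays (right); circles are replicate 1, squares replicate 2, bars the mean, and dashed lines the 1.5-fold bound. The means of the markers range from 0.03 to 2.21, while those of the members other than Fabp1 lie between -0.23 and 0.25.

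Slc27a2 in spleen was near the detection limit, and its ratio depended on the background correction. Its control channel was well above background on 1 of 2 spleen arrays and the nucleoprotein channel on 2 of 2, at levels of 6.13 and 6.38. The ratio was 0.25 ± 0.12 at an offset of 50, 0.63 at an offset of 10 and 1.45 by the log ratio of the deposited scanner files, which called it higher on both arrays. The other 2 Slc27a2 probes were not well above background in any spleen channel. Fabp1 had 1.37 at an offset of 10 and 1.53 by the deposited log ratio, and was called under both.

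The remaining spleen values of the pathway were small. For mitochondrial beta-oxidation the median was -0.07, with 7 of 9 means below 0 and only Hadha (-0.20 and -0.10) and Acaa2 (-0.11 and -0.13) below 0 on both arrays. For the 6 peroxisomal genes it was -0.07, with 6 of 6 means below 0, of which that of Eci2 (-0.01) was 0.00 under median centring, and 4 were below 0 on both arrays. These were Ech1 (-0.27 and -0.20), Decr2 (-0.09 and -0.18), Acaa1a (-0.04 and -0.11) and Ehhadh (-0.02 and -0.11). Among all 18139 measurable genes, 9107 had a mean below 0 and 3600 were below 0 on both arrays. Bdh1 had -0.16 and 0.22, and Cpt1a 0.16 and -0.31. The brightest probes of Acox2, Ppara, Acot3 and Acot4 were not well above background in any spleen channel. Acot1, the highest member in liver, had -0.12 and -0.07 in spleen (-0.09 ± 0.04), and whether the organs differ was not tested.

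Liver and spleen after LPS differed widely in these genes. Levels are single-channel log2 intensities scaled between the arrays, and a gene was called brighter in an organ when it was at least 2-fold brighter in each of 4 comparisons, made within a diet and a dye. Of 37 measurable members 34 were brighter in liver and 0 in spleen, beside 2378 (12.5%) and 3070 (16.2%) of 18971 genes. The median difference, liver minus spleen, was 2.84, against -0.09 for all genes. A mean difference of at least 8-fold was found for 18 members, beside 824 genes (4.34%).

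Genes of fatty acid import, binding and omega-oxidation were much brighter in liver. Slc27a2 had a level of 14.06 in liver and 6.25 in spleen, a difference of 7.80 (7.60 to 8.07 over the 4 comparisons). Its spleen control channel was well above background on 1 of 2 arrays, so the size of that difference rests on spleen signal at the detection limit. Cyp4a14 had 14.36 and 6.71, a difference of 7.65 (7.43 to 8.14), and Cyp4a10 a difference of 5.08 (4.84 to 5.19). Fabp1 had 14.38 in liver and 7.97 in spleen. Its difference was 6.41, with 7.03 as its highest value and 5.76 as its lowest, and it was the member whose difference varied most with diet. Ppara was not well above background in spleen and was at least 29.0-fold brighter in liver (10.97 against 6.09). Vnn1 had a difference of 5.55 (5.40 to 5.69).

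**Figure D5:**
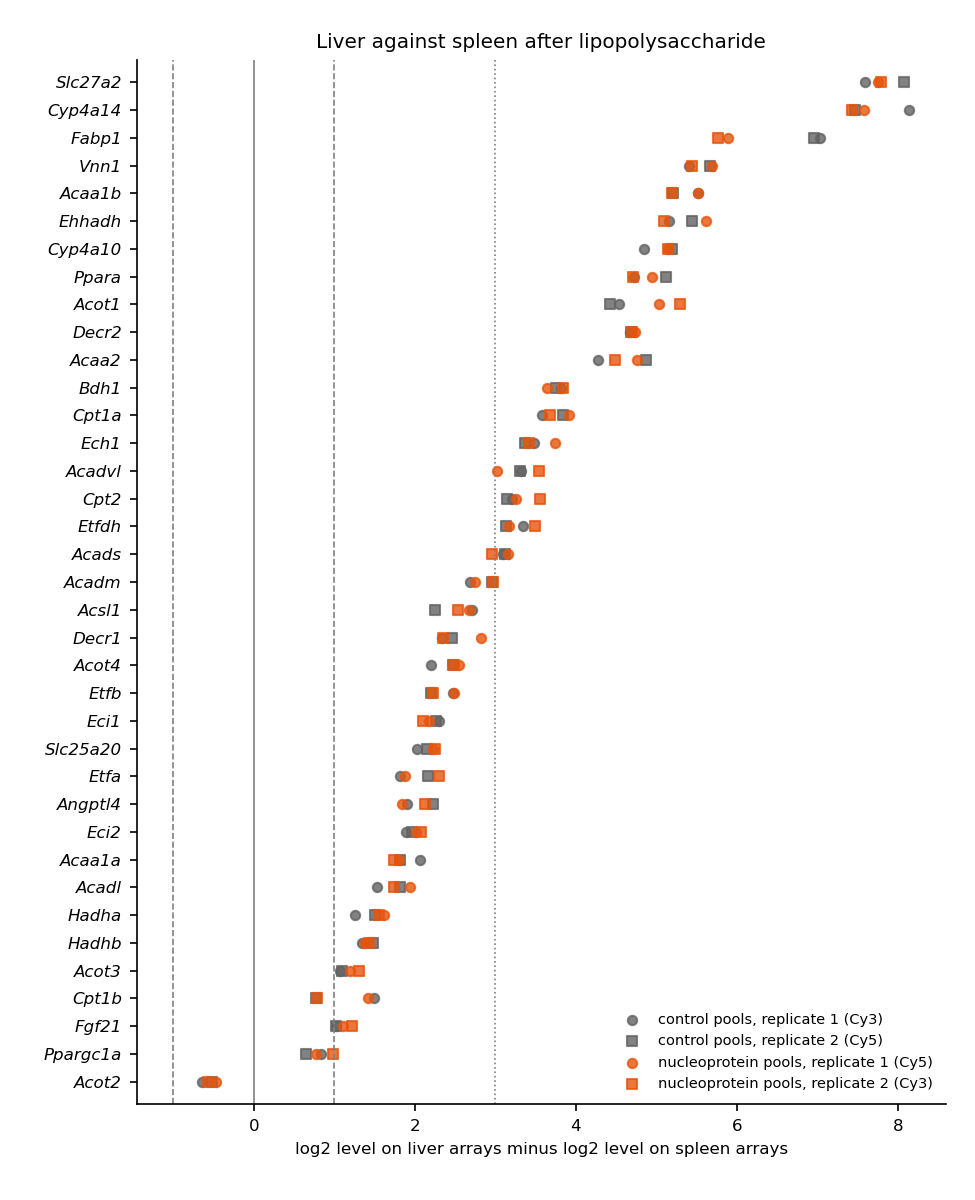
Liver minus spleen log2 level of the 37 measurable members, ordered by the mean; each gene has 4 points, one for each diet pool and dye, and vertical lines mark 0, 2-fold (dashed) and 8-fold (dotted). The points run from about 8 for Slc27a2 and Cyp4a14 to below 0 for Acot2, and the control and nucleoprotein points separate most for Fabp1.

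Peroxisomal genes had a median difference of 4.10 and mitochondrial beta-oxidation genes one of 2.49, with 6 of 6 and 9 of 9 brighter in liver. Among the peroxisomal genes, Acaa1b had 5.36 (5.20 to 5.52), Ehhadh 5.33 (5.10 to 5.62), Decr2 4.69 (4.67 to 4.73) and Ech1 3.50 (3.37 to 3.75). Acaa1a had only 1.86 (1.74 to 2.07) by its brightest probe. Its dimmer probe printed above had levels of 12.89 in liver and 8.86 in spleen, so these probes disagree on the size but not on the direction. Eci2 had 1.99 (1.89 to 2.08).

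Among the mitochondrial members Acaa2, Bdh1 and Cpt1a had the largest differences by their brightest probes. Acaa2 had 15.45 in liver and 10.86 in spleen, a difference of 4.60 (4.28 to 4.87). Cpt1a had 3.75 (3.58 to 3.92) and Bdh1, for ketone bodies, 3.76 (3.64 to 3.85), and their ranges overlap. A second, dimmer probe of Bdh1, well above background in every channel, had 8.65 in liver and 6.64 in spleen. That difference was smaller, so the rank of Bdh1 rests on its brightest probe. The dehydrogenases followed with 3.30 for Acadvl, 3.08 for Acads, 2.84 for Acadm and 1.76 for Acadl. Cpt2 had 3.29, Etfdh 3.28, Decr1 2.49, Etfb 2.35, Eci1 2.21, Slc25a20 2.16 and Etfa 2.04. The trifunctional protein was the least liver-rich enzyme of the cycle, with 1.48 for Hadha (1.26 to 1.61) and 1.41 for Hadhb (1.34 to 1.48). A second, dimmer probe of Hadha had 6.91 in liver and 7.15 in spleen, the opposite direction, so the difference of Hadha rests on the brightest probe.

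Of the remaining members, Acot1 had a difference of 4.82 (4.43 to 5.29), Acsl1 2.54 (2.25 to 2.71) and Angptl4 2.02 (1.84 to 2.22). Acot3 was not well above background in spleen and was at least 2.15-fold brighter in liver. The brightest probe of Acot4 was likewise not well above background in spleen and gave at least 5.37-fold, but its second probe was, with 7.54 in liver and 6.74 in spleen. Fgf21 had 7.53 in liver and 6.44 in spleen, a difference of 1.09 (1.03 to 1.22). The 3 members without a call were Cpt1b (1.12, from 0.77 to 1.49), Ppargc1a (0.81, from 0.64 to 0.98) and Acot2, which was brighter in spleen, at -0.55 (-0.65 to -0.47).

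A further list of 85 genes of the same pathways, of which 84 had a probe, was read in the same way. In liver 1 of 79 measurable genes was called higher and 0 lower, beside 2 (0.0122%) and 52 (0.317%) of all 16413 measurable genes. The median was 0.01, as for all genes. The gene called was Pdk4, the PPAR-responsive kinase that shuts down pyruvate oxidation, with 0.92 and 1.30 (1.11 ± 0.27). Under median centring of each array, and at a 2-fold bound, 0 of all measurable liver genes were called higher. The call of Pdk4 thus depended on the normalization and the bound. The next in size were Acacb, the carboxylase whose product inhibits Cpt1 (-1.11 and -0.29, -0.70 ± 0.57), Lpin2, a phosphatidate phosphatase (-0.27 and -0.59), and Cidea, a lipid droplet protein (-0.53 and -0.33). None of these 3 was past the bound on both arrays. In spleen 0 of 74 were called in either direction, beside 38 (0.209%) higher and 41 (0.226%) lower of all 18139 measurable genes, and the median was -0.03. Largest in size there were Slc27a5 (0.36 and 0.35), the bile acid and fatty acid CoA ligase of hepatocytes, and Fabp4 (0.28 and 0.28). Pdk4 (0.22 and 0.29) and Crat (-0.16 and -0.28), a carnitine acetyltransferase, followed.

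Of the 7 further ketone body genes 0 were called in either organ, with medians of 0.01 in liver and -0.03 in spleen, and 5 were brighter on liver and 1 on spleen arrays. Over the whole further list 47 of 79 genes were brighter in liver and 5 in spleen, beside 2378 (12.5%) and 3070 (16.2%) of all 18971 measurable genes. The median difference was 1.85, against -0.09 for all genes.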

How the data were processed

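Total RNA from liver and spleen was hybridised to 4 two-colour arrays. Per the file headers, the deposited scanner files hold for each of 45018 spots the mean and local background intensity in both dyes, the processed intensity after background subtraction and dye normalization, and the log10 ratio of red over green. The submitters' processing notes name Agilent Feature Extraction 9.5.3.1. The authors' deposited series table holds a signed score whose size equals red over green processed intensity on the linear scale (to 0.02 log2 units for at least 99.85% of spots above background); the reason for its minus sign on the replicate 1 arrays is not known.

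From these, background was corrected by normexp (offset 50), log2 ratios were normalized by loess within each array, and levels by Aquantile scaling (limma 3.58.1, R 4.3.3). Control spots had no weight, and 189 to 354 outlier gene spots per array were left out. Spots were averaged per probe, and the brightest of a gene's probes stood for it. Of 41174 probes 22944 were named by accession and 9772 by name through RefSeq (GRCm38.p6), and 8458 kept the file's name. A bound ("at least") sets the bright organ against the higher of the dim probe's signal and the lowest signal well above background. Steps were tested on simulated dye swaps, in which the dye bias depended on brightness only. Dye effects of single genes were not simulated. With 1 replicate per diet and organ no test was run, and the number of arrays limits the precision. Every member is named; of further pathway genes the called ones and the 4 largest ratios per organ are named. The rule would also have named called and bright markers of every cell type, and only the called hepatocyte genes and those that set a range are named here. The members and lists were chosen with earlier results of these data known. Alternatives covered background, normalization, probes, filters, thresholds and single arrays. Some items are not reported here.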

Additional observations from a re-analysis of the deposited data

How the results depend on the processing

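Under the alternatives run, the counts of members called stayed at 0 in liver, except that the replicate 2 array alone called 1 higher (Acot1), so that leaving out 1 array gave 0 to 1. In spleen 1 was called higher, but 2 with the scanner files' own log ratio and 2 with the authors' deposited series table, where Slc27a2 joined Fabp1, and 0 among members less than 8-fold brighter on liver arrays; leaving out an array gave 1 each time. The members' median ratio moved by more than its SD only under median centring, to 0.37 in liver and -0.02 in spleen. The sign of 15 of 37 single liver ratios turned under median centring, 14 without replicate 1 and 11 without replicate 2. The count of 34 members brighter on liver arrays was 25 to 36 under the alternatives run. The median liver minus spleen difference was 3.32 at an offset of 10, 2.39 without scaling between arrays, 3.92 with processed signals over their 75th percentile, 2.99 as the mean of all probes, 2.96 for members measurable in both organs, and 2.72 to 2.97 with 1 array per organ left out. The causes were not tested. No paired analysis was possible because the results come from no test. Dim probes limit the spleen values: 4 of 38 members were not measurable there.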
